A study of Apeltes quadracus with 21 samples.

Results

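Of 31532 gene models in *Apeltes quadracus*, 36 met a rule for more RNA in the dorsal spines than in 3 other tissues. The rule compared each of the 4 spines with the blank pterygiophore, the dorsal fin and the anal fin. The 36 were thus chosen by their measured values. A gene model outside the *Hox* list was taken when its lowest mean among the 4 spines met 2 thresholds. It had to be at least 5 CPM, the usual scaling of a count to its library total. It also had to be at least 2 times the highest mean among the other 3 tissues. The contrast of spines with other tissues is therefore given below as a description, with no test. Each of the 36 also passed the filter on low counts that left 21134 gene models for testing. No *Hox* gene model met the same thresholds (0 of 47).

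The RNA came from 3 lab-raised fry of the Louisbourg population, collected at the finfold stage (stage 31), with 4 dorsal spines and the genotype L/L at *HOXDB*. The authors link the L haplotype to fewer spines, and every library used here is L/L, so no genotype was compared. Each fish gave the foremost dorsal spine (DS1), the second (DS2), the third (DS3), the last one in front of the dorsal fin (DSL), a pterygiophore without a spine (Pter) and its median fins, dorsal (DF) and anal (AF), for a total of 21 libraries of 26357373 to 34564481 counts, with n = 3 in every tissue. Replicates 1, 2 and 3 are the 3 fish, so all tissues came from the same animals. The fit with tissue as the only term leaves this pairing out, so its p-values count differences between fish as spread. With fish as a block, p-values measure the spread left after those differences are removed. The tissue labels could be checked only with the *Hox* genes, the only named gene models, and *HOXD9B* stood at 0.0329 CPM in DS1 and 53.4 CPM in DSL.

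The dorsal spines of sticklebacks are a defence of solid bone, whereas the rays of the dorsal and anal fins are jointed and flexible. Spines and fins form within the same median fin fold, and spines, like fin rays, sit on pterygiophores, the bones of the midline. A blank pterygiophore is one without a spine. Genes with more RNA in all 4 spines than in these neighbours are thus shared along a series whose members differ in *Hox* expression. All 36 gene models carry only an identifier (STRG), and no gene name is paired with it in the files, so no function can be given for any of them. In dissected tissue, fewer cells of a type and less RNA per cell cannot be told apart.

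In its strictest sense, a gene used by the spines and nowhere else, the description fits few of the 36. The highest mean outside the spines was under 1 CPM in 1 gene model, between 1 and 5 CPM in 13 and at least 5 CPM in 22, of which 8 reached at least 20 CPM. The ratio of the lowest spine mean to the highest other mean had a median of 2.46. It was under 2.5 in 18 gene models, at least 3 in 8 and above 5 in 3. As a ratio of the average over spines to the average over the other tissues the median was 4.08-fold, with a range of 2.37-fold to 90.9-fold. Among the 12444 gene models with at least 5 CPM in every spine, the 36 made up 0.289%. Judged by the lowest of the 12 spine libraries against the highest of the 9 others, 30 of the 36 did not overlap, where 0.724% of all tested gene models did so in that direction, a count that the rule itself largely fixes.

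**Figure D1:**
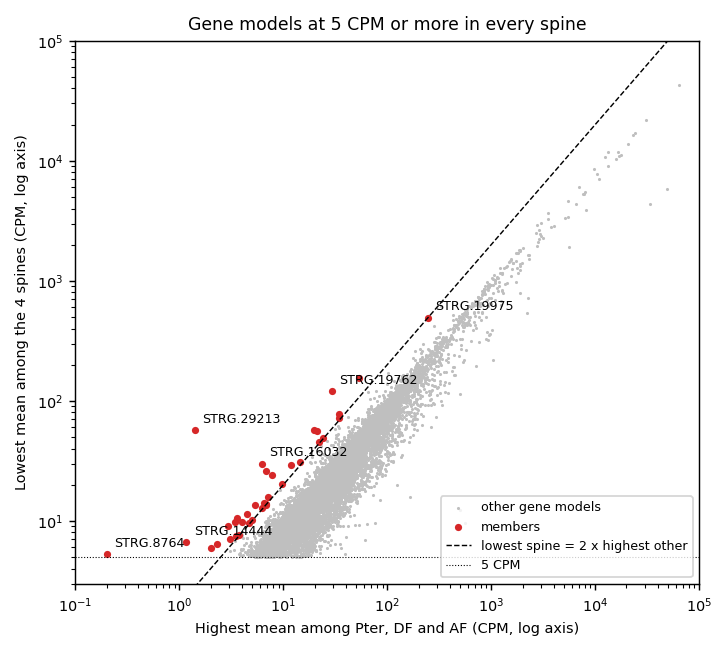
Each point is a gene model with at least 5 CPM in every spine, placed by its highest mean among Pter, DF and AF (x axis, CPM, log scale) and its lowest mean among the 4 spines (y axis, CPM, log scale), each a mean of 3 libraries. The 36 chosen gene models (red) lie on or above the dashed line of a 2-fold ratio, and STRG.29213 and STRG.8764 stand farthest from it.

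STRG.29213 had the largest ratio, 40.5. It lies on the unplaced scaffolds of the authors' assembly at chrUn:12567169-12570352, plus strand, with 11 exons and 1994 bp of exon. Over the 12 spine libraries it ran from 21.7 to 164 CPM with a median of 66.4 CPM. Over the 9 other libraries it ran from 0.106 to 2.92 CPM with a median of 0.557 CPM. The groups did not overlap, and the means were 87.2 ± 57.0 CPM in DS1, 69.4 ± 18.5 in DS2, 57.1 ± 34.9 in DS3, 93.8 ± 61.0 in DSL, 0.417 ± 0.273 in Pter, 0.711 ± 0.267 in DF and 1.41 ± 1.42 in AF (SD, n = 3 each). In reads this was 27553 in the spines and 240 in the other tissues. The means over the spines of one fish were 64.1, 116 and 50.8 CPM in replicates 1, 2 and 3, and the highest spine mean was 1.64 times the lowest.

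STRG.8764 (chr7:5722724-5726401, minus strand, 7 exons) was the only one of the 36 under 1 CPM in every other tissue. In DS1 its 3 libraries gave 24.6, 17.3 and 6.66 CPM, in DS2 14.98, 11.4 and 10.3, in DS3 3.54, 6.498 and 5.785, and in DSL 14.6, 15.4 and 10.99, in the order of replicates 1 to 3. The 9 other libraries lay between 0.0363 and 0.423 CPM, with 38 reads in all against 4246 in the spines. Every spine library was thus above every other library, and DS3 was the lowest spine in each fish. On the opposite strand its exons overlap STRG.8763 over 873 bp, 32.0% of its exon length. Whether reads were counted by strand is not given in the sources used here, so reads of the pair may be mixed. STRG.8763 had means of 6.22 to 7.94 CPM in the spines and 3.93 to 4.65 CPM in the other tissues, far less unequal than those of STRG.8764.

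STRG.14444 (chr11:3879588-3880947, minus strand, 4 exons) had a ratio of 5.72 and the widest range of the 36 between spine means, 15.1-fold. In DS1 it gave 10.5, 115 and 15.01 CPM in replicates 1, 2 and 3, in DS2 4.92, 52.1 and 14.65, in DS3 1.63, 11.7 and 6.73, and in DSL 23.8, 186 and 93.3. The 9 other libraries ranged from 0.106 to 2.68 CPM. Its spine and other libraries overlapped, since DS3 of replicate 1 was below Pter of replicate 3. Replicate 2 was the highest fish in every spine, and in each fish DSL was the highest spine and DS3 the lowest.

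A further 5 gene models had ratios between 3 and 5. STRG.16032 (chr12:8879924-8884514, ratio 4.86) ran from 24.8 to 103 CPM in the spines and stood at 6.17 ± 2.83 CPM in Pter, 0.423 ± 0.347 in DF and 0.593 ± 0.58 in AF (SD, n = 3). STRG.19762 (chr15:4827509-4833595, ratio 4.12) ran from 106 to 274 CPM in the spines and from 5.90 to 44.4 CPM elsewhere. For STRG.20128 (chr15:10916568-10925667, ratio 3.84) the ranges were 20.6 to 50.7 and 2.88 to 9.53 CPM. In these 3 gene models no spine library overlapped any other library, and each single fish also met both thresholds. STRG.4385 (chr4:560659-562894, ratio 3.10) ran from 5.71 to 16.1 CPM in the spines and from 0.745 to 4.89 CPM elsewhere. STRG.2294 (chr2:8781610-8797860, ratio 3.09) ran from 18.5 to 49.4 CPM in the spines and from 0.5998 to 9.50 CPM elsewhere. STRG.2294 was 1 of only 2 among the 36 whose lowest spine was DSL, with 23.9 ± 3.22 CPM there and 37.6 ± 11.3 in DS2 (SD, n = 3 each).

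The most abundant of the 36 was STRG.19975 (chr15:8378877-8381102, minus strand), whose mean over the spines was 821 CPM, or 1830 CPM per kb of its 448 bp of exon. Its means were 802 ± 329 CPM in DS1, 878 ± 209 in DS2, 494 ± 160 in DS3 and 1110 ± 130 in DSL, against 50.8 ± 22.0 in Pter, 239 ± 106 in DF and 244 ± 98.7 in AF (SD, n = 3 each). The fins therefore held much RNA of this gene model, its ratio was only 2.02, and 1 spine library, DS3 of replicate 3 at 309 CPM, lay under the fins of the same fish. STRG.12413 (chr9:11981015-11983308) followed with a spine mean of 278 CPM, or 299 CPM per kb, and ranged from 144 to 411 CPM in the spines and from 23.2 to 68.4 CPM elsewhere. The next were STRG.19762 with 192 CPM (79.0 CPM per kb), STRG.2477 (chr2:11772465-11805750) with 125 CPM (36.6 per kb) and STRG.16175 (chr12:10721859-10725877) with 111 CPM (65.8 per kb). The lowest spine mean was 6.95 CPM, in STRG.28015 (chrUn:3726826-3727524, ratio 2.93), a single-exon model of 699 bp.

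Between these extremes lay 13 gene models with moderate levels, given here by their libraries so that all 36 are accounted for and named after their values were seen. STRG.13411 (chr10:5483281-5491792, ratio 2.67) ran from 42.5 to 103 CPM in the spines and from 12.4 to 23.9 CPM elsewhere, and STRG.13437, 211688 bases away on the other strand, from 10.01 to 33.3 and from 1.13 to 7.59 CPM. STRG.14041 (chr10:14222524-14240585, ratio 2.07), the model with the most exons of the 36 (27), ran from 41.0 to 89.8 and from 11.9 to 26.1 CPM. STRG.30878 (chrUn:26585770-26592111) ran from 24.6 to 62.5 and from 4.83 to 13.4 CPM. In none of these 4 did a spine library reach down to another tissue.

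Of the other 9, STRG.6332 (chr5:1664007-1684073) ran from 15.4 to 46.8 CPM in the spines and from 5.25 to 11.5 CPM elsewhere. STRG.24855 (chr19:12186060-12188833) ran from 9.64 to 27.3 and from 1.07 to 7.02 CPM, and STRG.18915 (chr14:8167073-8209483) from 10.6 to 23.3 and from 2.69 to 8.47 CPM. STRG.4860 (chr4:8715301-8779743), which spans 64443 bases, the longest of the 36, ran from 8.42 to 20.6 and from 1.96 to 4.87 CPM. These too were free of overlap. STRG.11331 (chr8:16152375-16155730), STRG.9788 (chr7:20062080-20063850) and STRG.7830 (chr6:8807459-8812494) did not overlap either, with lowest spine libraries of 7.84, 6.498 and 5.15 CPM against highest other libraries of 5.16, 5.57 and 4.08 CPM. Overlap was found in STRG.889 (chr1:12273969-12277374), where the lowest spine library was 10.3 CPM and the highest other one, from Pter of replicate 1, was 10.6 CPM. It was also found in STRG.25591 (chr20:4272039-4320542), with 4.19 CPM in the lowest spine library, DS1 of replicate 3, and 4.96 CPM in the highest other one.

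The lower edge of the set was not a gap. Just inside the 2-fold threshold were STRG.11885 (ratio 2.012), STRG.25615 (2.013), STRG.19975 (2.022) and STRG.6012 (2.033). Just outside it were STRG.22061 (1.957), STRG.26037 (1.931), STRG.16250 (1.886) and STRG.1759 (1.861). Under the 5 CPM threshold, STRG.12024 and STRG.24722 had lowest spine means of 4.703 and 4.498 CPM with ratios of 9.291 and 9.44, above those of all but 2 of the 36.

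Taken fish by fish, 8 of the 36 met both thresholds in 3 of 3 fish, 21 in 2, 6 in 1 and 1 in none. The one that no single fish supported was STRG.25615 (chr20:5224282-5237503), whose 12 spine libraries ran from 7.26 to 24.5 CPM and whose 9 other libraries ran from 3.24 to 9.53 CPM. Without replicate 2 only 20 gene models met the rule, 19 of them among the 36. With means of counts scaled by TMM factors, which allow for a few very abundant genes taking up reads, 45 met it and 31 were shared. The 5 that left were STRG.889, STRG.1957, STRG.3772, STRG.6012 and STRG.25615, with ratios of 1.67 to 1.97 on that scale. The 14 that entered included STRG.12024 and STRG.24722, whose lowest spine means then exceeded 5 CPM.

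**Figure D2:**
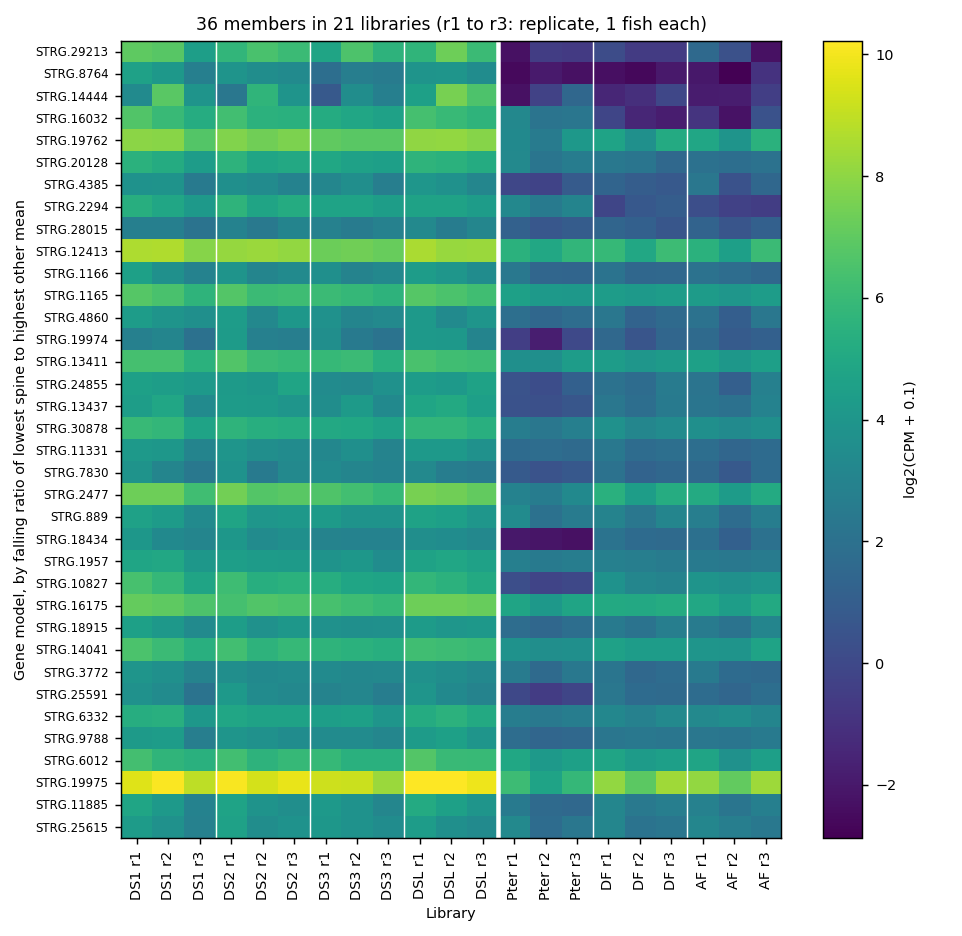
Rows are the 36 gene models, ordered by falling ratio of the lowest spine mean to the highest other mean, and columns are the 21 libraries, with colour giving log2(CPM + 0.1). The step at the thick line parts the 12 spine libraries from the 9 others, and STRG.18434, STRG.10827 and STRG.2294 show unequal levels between Pter and the fins.

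The rule did not use differences between one spine and another, so these were tested. Both of its thresholds, 5 CPM and the 2-fold ratio, do act on the lowest spine mean. They leave less room for gene models that are nearly off, or much lower, in 1 of the spines. In edgeR's quasi-likelihood test with tissue as the only term, 0 of the 36 differed among the 4 spines at an adjusted p of 0.05, where 0.232% of all tested gene models did. At an unadjusted p under 0.05 there were 7 (19.4%, against 6.7% of all tested), and the lowest adjusted p was 0.236 (STRG.16175). DESeq2 called 1, where it called 1.27% of all tested. With fish as a block 8 of the 36 passed (22.2%, against 4.99% of all tested and 6.17% of those with at least 5 CPM in every spine). These were STRG.14444 (adjusted p 0.000251), STRG.1957 (0.0121), STRG.16175 (0.0212), STRG.24855 (0.0241), STRG.18434 (0.033), STRG.8764 (0.0344), STRG.10827 (0.0392) and STRG.16032 (0.0424), and those that no other part of the naming rule covers were named after their values were seen. The 8 calls depended on the fish: the blocked count was 1 without replicate 1, 2 without replicate 2 and 8 without replicate 3. Such fits have fewer libraries for every gene model, and their share of all tested gene models is not given here. These counts, and the later ones that leave out a fish, are therefore not a result about the 36 as such.

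The order of the spines was not a gradient from head to tail. DSL had the highest mean in 25 of the 36 (69.4%) and DS3 the lowest in 31 (86.1%). On this scale the order was common, with DSL the highest spine in 56.7% and DS3 the lowest in 72.0% of the 12444 gene models with at least 5 CPM in every spine. On the TMM scale DS3 was the lowest spine in 29 of the 36 (80.6%) against 28.9% of the 12444, and DSL the highest in 19 (52.8%) against 26.6%. DS3 of a given fish was below the geometric mean of its other 3 spines in all 3 fish for 24 of the 36 (66.7%, against 23.1% of the 12444). The medians over the 36 of this within-fish log2 ratio were -0.484, -0.31 and -0.264 in replicates 1, 2 and 3, and those of the 12444 were -0.00168, 0.00109 and 0.0239.

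DS3 was therefore compared with the mean of the other 3 spines, a contrast chosen after these orders were seen. In 31 of the 36 DS3 was also the lowest spine, the one that the rule held to both thresholds. The edgeR log2 difference was below 0 in 33 of the 36, where 49.7% of the gene models with at least 5 CPM in every spine were below 0. The median was -0.345 against -0.00706 for all tested. With tissue alone 0 of the 36 passed, where 0.00946% of all tested did, with 13 at an unadjusted p under 0.05 (36.1%, against 7.84%). DESeq2 called 0, where it called 0.101% of those it tested. With fish as a block 7 passed, all lower in DS3 (2.17% of all tested passed, and 0.738% passed as lower). The 7 were all among the 8 that differed among spines in the blocked test.

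Among these 7, the log2 difference of DS3 was -2.51 ± 0.398 for STRG.14444 (SE, adjusted p 0.00489), -1.14 ± 0.241 for STRG.8764 (0.0244) and -0.81 ± 0.179 for STRG.16032 (0.0286). For STRG.24855 it was -0.72 ± 0.141 (0.0172) and for STRG.1957 -0.58 ± 0.108 (0.0141). The smallest were those of STRG.16175, -0.55 ± 0.145 (0.049), and STRG.10827, -0.49 ± 0.123 (0.0437). Each of the 7 was below the mean of the other spines in 3 of 3 fish. The blocked count became 0, 1 and 9 when replicate 1, 2 or 3 was left out.

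STRG.16032 is an example, although its highest spine mean on column totals was in DS1, as in only 6 of the 36. It stood at 103, 64.6 and 37.0 CPM in DS1, at 75.6, 46.0 and 43.85 in DS2, at 36.1, 29.05 and 24.8 in DS3 and at 82.5, 61.5 and 49.8 in DSL, in replicates 1, 2 and 3. DS3 was the lowest spine in every fish, yet DS3 of replicate 1 was close to DS1 of replicate 3. The 3 of the 36 whose edgeR difference, on the TMM scale, was not below 0 were STRG.7830, STRG.28015 and STRG.25615. On column totals their DS3 means were 8.68, 6.81 and 13.8 CPM, within the range of their other spine means. On the TMM scale DS3 of STRG.7830 and STRG.25615 was above the geometric mean of the other spines in replicates 2 and 3 only.

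**Figure D3:**
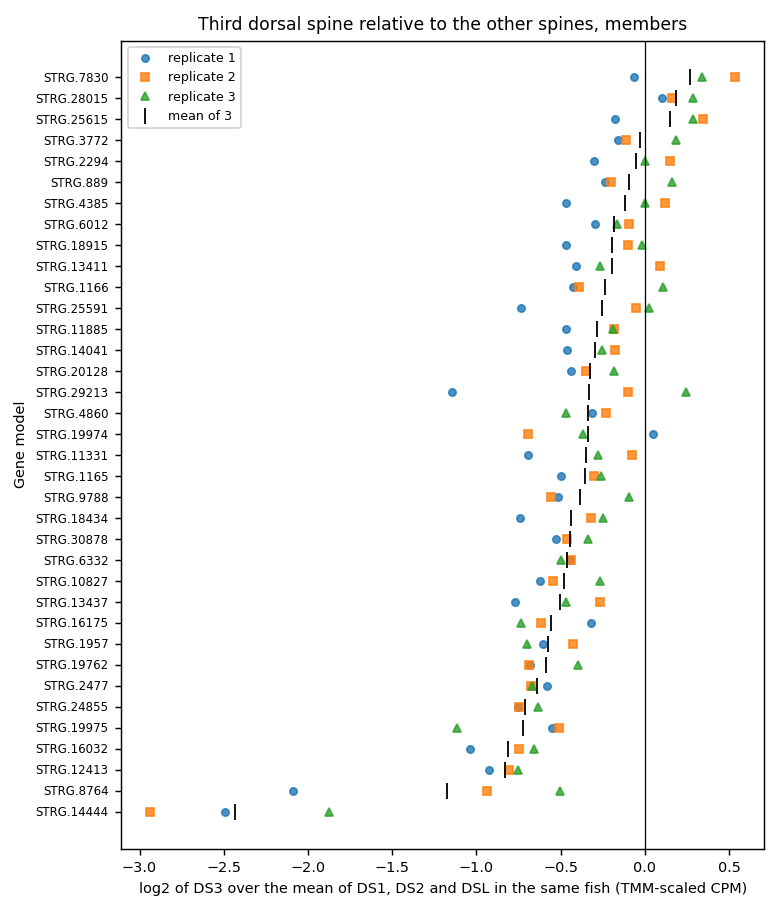
For each of the 36 gene models (y axis), points give the log2 ratio of DS3 to the geometric mean of DS1, DS2 and DSL in the same fish, on TMM-scaled CPM (x axis), with the mean of 3 fish as a black line. Most points lie left of 0, with medians of -0.484, -0.31 and -0.264 in the 3 fish, and STRG.14444 lies farthest left.

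In composition the DS3 libraries were apart from those of DSL but overlapped those of DS1 and DS2. The share of counts taken by the 10 most abundant genes of the series was 21.9 to 24.9% in DS3, 16.9 to 18.4% in DSL, 15.2 to 23.2% in DS1 and 19.75 to 24.7% in DS2. The summed TMM-scaled level of the 36 was 1331 to 1973 CPM in DS3, 1658 to 3095 in DS1, 2240 to 2879 in DS2 and 2427 to 3068 in DSL. The ranges of DS3 and DS1 overlapped in this sum, whereas DS3 lay below every DS2 and DSL library. Within each fish DS3 was also below DS1, with 1841 against 2484 CPM in replicate 1, 1973 against 3095 in replicate 2 and 1331 against 1658 in replicate 3. The sum was 270.9 to 448.7 CPM in Pter, 354.5 to 613.0 in DF and 346.0 to 619.8 in AF. These all lay below DS3, an order that the rule itself largely fixes. The part of library composition in the DS3 difference was not tested.

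The posterior spines (DS3 and DSL) were set against the anterior ones (DS1 and DS2). In edgeR 0 of the 36 passed with tissue alone, where 0.0899% of all tested did, with 5 at an unadjusted p under 0.05 (13.9%, against 3.94%). DESeq2 called 0, where it called 0.531% of all tested. With fish as a block 1 passed (1.11% of all tested passed, 0.303% as lower), STRG.10827 (chr8:8600371-8609329), with a log2 difference of -0.45 ± 0.103 (SE, adjusted p 0.0358). That call depended on the fish, with 0 passing without replicate 1 or replicate 2 and 2 without replicate 3. The median log2 difference over the 36 was -0.119, against -0.00809 for all tested. Between the ends of the series, DSL and DS1, 0 of the 36 passed in edgeR, where 0.208% of all tested did. At an unadjusted p under 0.05 there was 1 (2.78%, against 4.09%). DESeq2 and the blocked fit also called 0, where they called 0.72% and 1.45% of all tested. The log2 differences of DSL from DS1 ran from -0.428 to 1.09, with a median of 0.117.

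Levels outside the spines were not alike in Pter and the fins. The rule set only a ceiling on the 3 tissues, so differences among them were tested. Among Pter, DF and AF, 10 of the 36 differed (27.8%, against 9.71% of all tested and 12.3% of those with at least 5 CPM in every spine). With fish as a block 17 differed (47.2%, against 29.6% of all tested and 39% of those with at least 5 CPM in every spine). The 10 of the fit without a block were among the 14 that differed between Pter and the mean of both fins. These 14 were 38.9%, against 17.8% of all tested and 23% of those with at least 5 CPM in every spine. Of the 14, 7 were higher in Pter (8.6% of all tested) and 7 lower (9.22%). With fish as a block 20 passed (55.6%, against 37.3% of all tested and 47.9% of those with at least 5 CPM in every spine). Of these 20, 11 were higher in Pter (16.5% of all tested) and 9 lower (20.8%). DESeq2 called 15 (41.7%, against 20.8% of all tested). The direction split depended on the scaling. The rule used column totals, whereas this test used TMM factors, so the choice of the 36 also bears on the split. With the rule on the TMM scale, STRG.1957, STRG.3772 and STRG.6012, all among the 7 higher, left the set (ratios 1.94, 1.75 and 1.75). The 7 lower ones all stayed. Without scaling factors the median of all tested gene models moved by -0.517 on the log2 scale. The split then became 3 higher and 16 lower, where 415 and 11029 of all 21134 tested gene models passed in these directions. The 10 most abundant genes took 26.6 to 28.4% of the counts in Pter and 15.4 to 18.1% in the fins, and their part in these calls was not tested.

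The gene models with the least fin RNA relative to Pter were STRG.16032 and STRG.2294. STRG.16032 gave 9.43, 4.34 and 4.73 CPM in Pter, 0.822, 0.262 and 0.186 in DF and 0.434, 0.109 and 1.235 in AF, in replicates 1, 2 and 3. Every Pter library was above every fin library, and the log2 difference was 4.15 ± 0.435 (SE, adjusted p 8.64e-06). STRG.2294 gave 9.50, 5.70 and 8.01 CPM in Pter, 0.822, 1.54 and 1.92 in DF and 1.13, 0.690 and 0.5998 in AF. Here too Pter and fins did not overlap, and the log2 difference was 3.35 ± 0.249 (adjusted p 1.58e-07). Both thus had an order of spines above Pter above fins. STRG.20128 was higher in Pter by 1.27 ± 0.231 (adjusted p 0.00147). These 3 also passed without scaling factors, with differences of 3.62, 2.83 and 0.74.

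At the other end were gene models with almost no RNA in Pter. STRG.18434 (chr14:1362793-1364751, plus strand, a single exon) gave 0.142, 0.130 and 0.106 CPM in Pter, 4.27, 3.115 and 3.06 in DF and 3.76, 2.11 and 3.92 in AF. This was 11 reads in all 3 Pter libraries against 623 in the 6 fin libraries, and the log2 difference of Pter was -4.19 ± 0.293 (SE, adjusted p 7.92e-08). In the spines it ran from 7.42 to 16.7 CPM. STRG.10827 gave 1.10, 0.7775 and 0.883 CPM in Pter, 13.7, 8.655 and 7.83 in DF and 15.1, 12.9 and 15.6 in AF. Its difference was -3.19 ± 0.323 (adjusted p 5.86e-06), and it had 26.1 to 83.7 CPM in the spines. For both the order was spines above fins above Pter, with no overlap between any of the 3 groups of libraries.

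**Figure D4:**
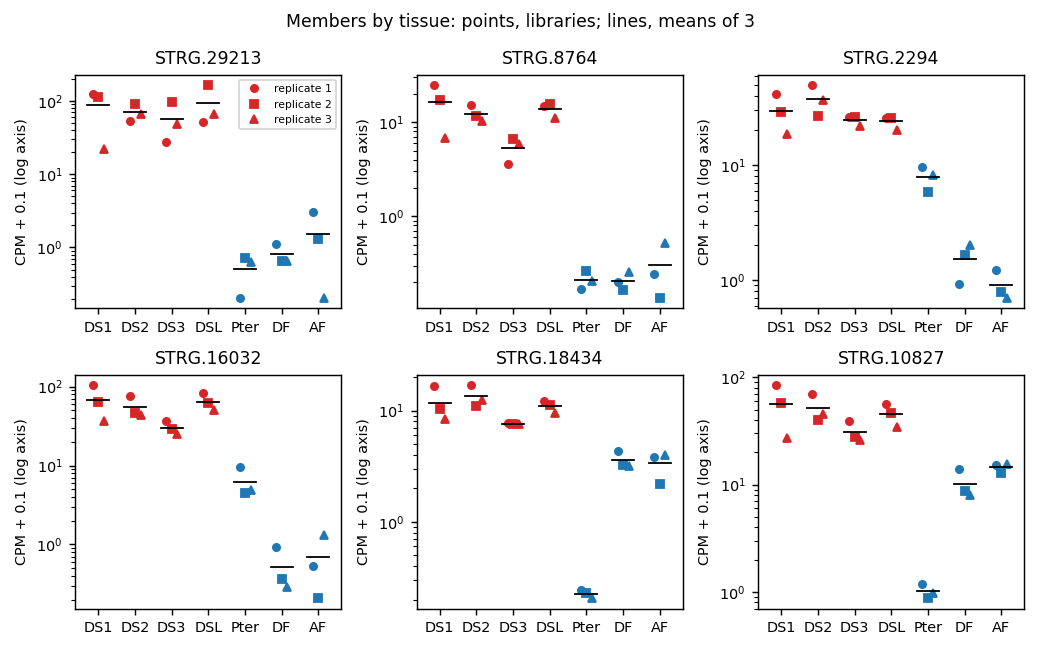
CPM + 0.1 (y axis, log scale) of 6 of the 36 gene models in the 7 tissues, with 1 point per library, a marker shape for each fish and a line at the mean of 3. STRG.29213 and STRG.8764 are low in all 3 other tissues, STRG.2294 and STRG.16032 are higher in Pter than in the fins, and STRG.18434 and STRG.10827 are lower in Pter than in the fins.

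The remaining 5 gene models that were lower in Pter had smaller differences from the fins. The log2 difference of Pter from the fins was -1.72 ± 0.375 for STRG.19975 (SE, adjusted p 0.00493) and -1.502 ± 0.27 for STRG.2477 (0.00127). The others, all named after their values were seen, were STRG.25591 (-1.65, adjusted p 0.00363), STRG.13437 (-1.45, 0.00547) and STRG.24855 (-1.04, 0.0222). These 5 also passed as lower in Pter without scaling factors, where 11029 of all 21134 tested gene models did so. Leaving out 1 fish ended 4 of the calls. STRG.19975 was lost without replicate 1 (adjusted p 0.0581) or 3 (0.0546), STRG.24855 without replicate 1 (0.226) or 2 (0.0646), STRG.13437 without replicate 1 (0.0882) and STRG.25591 without replicate 2 (0.104).

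The remaining 4 gene models that passed as higher in Pter had smaller differences. STRG.3772 was higher in Pter by 0.84 ± 0.222 (SE, adjusted p 0.0155), STRG.6012 by 0.66 ± 0.221 (0.0472), STRG.1957 by 0.59 ± 0.157 (0.0153) and STRG.1165 by 0.53 ± 0.175 (0.0446). Without scaling factors none of these 4 passed, and their differences were 0.31, 0.13, 0.07 and 0.01. On column totals their Pter means differed from those of the fins by little, as for STRG.1165 with 19.4 ± 3.41 CPM in Pter, 19.7 ± 1.48 in DF and 18.9 ± 2.62 in AF (SD, n = 3). Leaving out any of 13 libraries ended the call for STRG.1165 (adjusted p 0.0509 to 0.151) and any of 14 that for STRG.6012 (0.0501 to 0.182). Each of the 4 was also lost without at least 1 whole fish (adjusted p 0.05 to 0.269). STRG.3772 was lost without Pter of replicate 1 (0.071) or 3 (0.0513), and STRG.24855 without Pter of replicate 1 (0.0851) or 2 (0.15). The 14 calls became 9 without replicate 1 and 8 without replicate 2, and the 10 among the 3 tissues became 4 and 5, or 6 without Pter of replicate 2 or 3. These leave-out fits had no block. With fish as a block and all 21 libraries, each of the 14 passed again. The blocked adjusted p was 0.00279 for STRG.1165, 9.74e-05 for STRG.6012, 0.000516 for STRG.3772, 0.000979 for STRG.1957 and 0.00058 for STRG.24855.

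**Figure D5:**
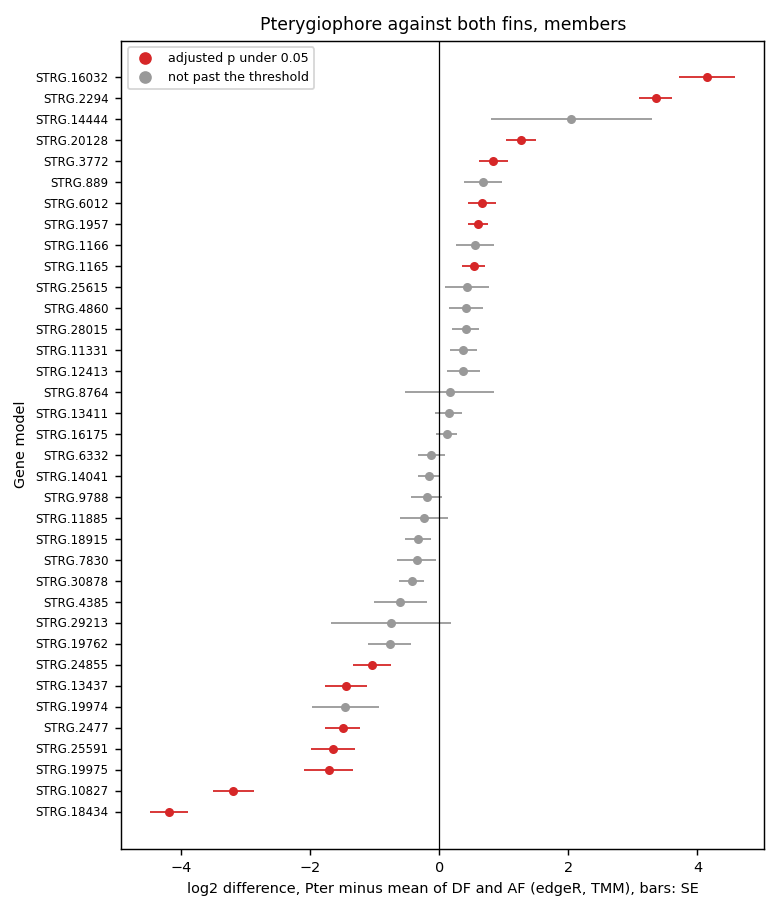
The edgeR log2 difference of Pter from the mean of DF and AF (x axis, bars are SE) for each of the 36 gene models (y axis), with those past an adjusted p of 0.05 in red. The 7 higher ones run from 0.53 to 4.15 and the 7 lower ones from -4.19 to -1.04.

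The fins were also compared with each other. Between AF and DF 0 of the 36 passed in edgeR, where 0.218% of all tested did, with 1 at an unadjusted p under 0.05 (2.78%, against 1.59%). With fish as a block 0 passed (0.426% of all tested), and DESeq2 also called 0 (0.36%). The log2 differences of AF from DF ran from -0.808 to 1.03. The tissue with the highest mean outside the spines, the one that set each ratio, was AF in 16 (44.4%), DF in 13 (36.1%) and Pter in 7 (19.4%) of the 36, against 45.3%, 47.7% and 7.05% of the 12444. On the TMM scale these counts were 13 (36.1%), 7 (19.4%) and 16 (44.4%), against 3727, 3756 and 4961 of the 12444.

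Differences between fish were about as frequent in the 36 as in other gene models of their level. With tissue and fish in the model, 24 of the 36 differed among fish (66.7%, against 56.7% of all tested and 65.7% of those with at least 5 CPM in every spine), and DESeq2 called 20 (57.6% of all tested). The lowest p was that of STRG.14444 (adjusted p 1.49e-06), followed by STRG.1166, STRG.6012 and STRG.25615. The count was 10 without replicate 1. The 36 shared a direction: on the TMM scale replicate 3 had the lowest spine mean of the 3 fish in 32 (88.9%, against 39.6% of the 12444 gene models with at least 5 CPM in every spine), and replicate 1 the highest in 23 (63.9%, against 30.9%). DS1 of replicate 3 was the lowest DS1 library in 34 (94.4%, against 41.3%). Over the 12 spine libraries the 630 pairs among the 36 had a median Pearson r of 0.719 on log2(CPM + 0.5), against 0.37 for pairs of the 12444. After each fish mean was removed it was 0.763 against 0.531. These correlations share library depth and composition and are a description only.

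The 36 were scattered over the genome. Of these, 33 lay on 16 chromosomes, with at most 4 on any one (chromosome 15), and 3 were on unplaced scaffolds (8.33%, against 4.33% of the 12444). Their median exon length was 2914 bp, close to the 2861 bp of the 12444, but their median exon number was 4.5 against 10. Single-exon models made up 4 of the 36 (11.1%) against 2.86%. Among the 36, STRG.8764 and STRG.889 (with STRG.888, over 137 bp) overlapped an exon of the opposite strand and none overlapped one of its own strand.

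Neighbours within 100 kb formed 2 pairs. STRG.1165 (chr1:16825551-16834626, minus strand) and STRG.1166 (chr1:16834657-16842062, plus strand) point away from each other with 30 bases between them. STRG.1165 ran from 48.6 to 109 CPM in the spines and from 15.9 to 23.4 elsewhere, and STRG.1166 from 7.45 to 23.6 and from 2.58 to 4.998. Both had their lowest spine mean in DS3 and their highest in DSL. Among the 12444 gene models, 755 pairs of neighbours pointed away from each other within 1000 bases. STRG.19974 (chr15:8377482-8378312, plus strand) and STRG.19975 point towards each other with 564 bases between them. In the 12444 gene models, 870 pairs of neighbours pointed towards each other within 1000 bases. STRG.19974 ran from 3.99 to 19.6 CPM in the spines and from 0.194 to 3.01 elsewhere, and as in STRG.19975 DSL was the highest spine and Pter the lowest tissue.

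The same thresholds applied to other groups of tissues gave sets of other sizes. High in the 4 spines and Pter over both fins were 8 gene models, high in Pter over all 6 other tissues were 9, and high in both fins over the spines and Pter were 98. The median exon number was 4.0, 1.0 and 7.0 in these sets, and 4.5 in the 36.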

How the data were processed

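RNA-seq libraries were made by the authors with a stranded mRNA kit from 7 tissues of 3 fish. The deposited values are counts per gene model, whole numbers without normalization, made by the authors. Per the labels, the processing tools were Trim Galore, cutadapt 2.4, FastQC 0.11.9, STAR and featureCounts (Subread 2.0.1). StringTie gene models came from the authors' own assembly, whose scaffolds follow *Gasterosteus* chromosomes, and whether counting used strand is not given in the sources used here. A further 85 columns were not used here.

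CPM values use column totals. Tests used edgeR 4.0.16 in R 4.3.3 (filterByExpr, which set aside 0.0403% of counts, TMM factors, quasi-likelihood F test, two-sided for single contrasts, tissue as the only term, all 21 libraries), with Benjamini-Hochberg adjustment over 21134 gene models at 0.05. SE is approximate, the difference over the root of its F statistic. Replicate numbers pair the samples, since each stands for 1 fish: residuals of tissues of the same fish correlated at 0.52 or more (median 0.62 over 63 pairs). Within each tissue no library was a duplicate of another (chi-square per degree of freedom 28.3 to 328). Pairs from different tissues were not checked in this way. Alternatives were fish as a block, RLE factors, DESeq2 1.42.0, no filter, a filter of 1 CPM in 6 libraries and leaving out each fish or library. Column totals without scaling, DS3 against the other spines, and the block without each fish were added after seeing the data. The procedure was tested on simulated data.

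The rule for named gene models took the 10 largest ratios, the 5 highest spine means, up to 10, 6 and 4 with the lowest p among spines, among Pter, DF and AF and among fish, the 4 nearest either side of the 2-fold threshold, and neighbours within 100 kb. The members, lists and tests were chosen with earlier results of these data known.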

Additional observations from a re-analysis of the deposited data

How the results depend on the processing

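The number of gene models that met the rule was 74 at 1.5-fold, 8 at 3-fold and 69 at 1 CPM, 20 to 43 without 1 fish and 25 to 43 without 1 library. Counts of these 36 past the threshold moved as follows. Among the 4 spines the count of 0 became 8 with fish as a replicate block (1, 2 and 8 of these fits without replicates 1, 2 and 3), 1 under DESeq2 and 1 on column totals without scaling. For posterior against anterior spines it became 1 with the block and 2 with the block without replicate 3, for DSL against DS1 it became 1 with the block without replicate 2, and for DS3 against the other spines it became 7 with the block, 1 with the block without replicate 2 and 9 without replicate 3. Among Pter, DF and AF the 10 became 17 with the block and 19 with the block without replicate 3, 4 to 7 without 1 fish and 6 to 11 without 1 library. For Pter against the fins the 14 became 8 to 11 without 1 fish and 10 to 15 without 1 library, and among fish the 24 became 10 to 24 and 20 to 28. The difference of STRG.4860 between Pter and fins, which did not pass, turned to -0.117 without scaling factors. In each case the cause was not tested. The counts for the spine comparisons and for AF against DF stayed at 0 without any fish or library in the fit without a block, and a low count in such a fit does not show that levels were equal. Depth limits the Pter and fin values of STRG.8764 and the Pter value of STRG.18434, which rest on 10, 28 and 11 reads.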

Other observations

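Beside the pair on chromosome 15, the next 2 gene models on the minus strand were also higher in every spine than elsewhere without reaching a 2-fold ratio, and they were looked at after their values were seen. STRG.19976 (chr15:8392014-8399502) had means of 7.13 to 16.6 CPM in the spines, 1.36 in Pter, 3.89 in DF and 4.44 in AF, a ratio of 1.61. STRG.19977 (chr15:8400228-8403017) had means of 57.9 to 128 CPM in the spines, 20.2 in Pter, 31.6 in DF and 25.5 in AF, a ratio of 1.83. With STRG.19974 and STRG.19975 they form a run of 4 adjacent gene models, each with its highest mean in DSL and its lowest in Pter. Both features are common on column totals: of the 12444 gene models with at least 5 CPM in every spine, DSL was the highest spine in 56.7% and Pter the lowest of the 3 other tissues in 89.5%, and STRG.19971 nearby had them too. On the other side STRG.19973 had at most 0.152 CPM in any tissue and STRG.19972 a ratio of 1.34. On TMM-scaled means STRG.19976 and STRG.19977 reached ratios of 2.01 and 2.26 and met the rule.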
